A study of Mus musculus with 8 samples.

Results

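The genes described here are 7 transcription factors of eye development: Pax6, Six3, Lhx2, Sox2, Meis1, Meis2 and Foxc1. They were found by symbol, as every probe set that the array platform's annotation assigns to one of these genes and to no other, which gave 14 of the 22690 probe sets on the array and 7 of the 12393 genes that its single-symbol probe sets name. Pax6 had 5 probe sets, Six3 had 3, Foxc1 had 2, and Lhx2, Sox2, Meis1 and Meis2 had 1 each. RNA was taken from wild-type mouse eyes and from eyes named KPAW at 5 days and at 1 month of age. Each of the 4 groups has 2 arrays, numbered I and II. The wild type of 5 days is C57Bl6, and neither the strain of the other 3 groups nor the meaning of KPAW is given in the labels. What KPAW changes, in which cells it acts, and whether an array stands for 1 animal or a pool are not given either. Every p-value thus measures the spread between these arrays, which may be technical in some groups. The KPAW arrays differed in Xist at 5 days (0.0821 and 3.13) and in summed rod markers at 1 month (0.755 and 29.8). Neither KPAW pair is thus a repeat of 1 RNA.

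Pax6 is a paired-domain and homeodomain protein at the head of the network that specifies the eye. Six3 is a homeodomain protein of the Six3 and Six6 pair, and Lhx2 is a LIM-homeodomain protein. Both mark the eye field in the anterior neural plate together with Rax and Six6. Sox2, a Sox-family factor, keeps neural progenitors in cycle and partners Pax6 at lens enhancers, and Meis1 and Meis2 are TALE homeodomain proteins that bind and activate Pax6 enhancers. Foxc1, a forkhead factor, belongs to another lineage, the periocular mesenchyme that forms the corneal stroma and the drainage angle. In the postnatal eye, Pax6 continues in amacrine cells, ganglion cells, lens epithelium and corneal epithelium, Meis2 in amacrine cells, and Lhx2 and Sox2 in Müller glia.

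RefSeq gives 9 transcription starts for these 7 genes on the mouse build GRCm38.p6. The promoters of Lhx2 and Meis2 are shown because these were the 2 genes called lower at 1 month in both kinds of eye. The second Pax6 start is shown as well. Probe sets were not assigned to starts, so it is not tied to the values of any Pax6 probe set. Each sequence is the 250 bases before the start, 5′ to 3′ on the gene's strand, and capitals mark a match to one of the 4 motifs searched.
Lhx2 first start, chr2:38339031-38339280, plus strand: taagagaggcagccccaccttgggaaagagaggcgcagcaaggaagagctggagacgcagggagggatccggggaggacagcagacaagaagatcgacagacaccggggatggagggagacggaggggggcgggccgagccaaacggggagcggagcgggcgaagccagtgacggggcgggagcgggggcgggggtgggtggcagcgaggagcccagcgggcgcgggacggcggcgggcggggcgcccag
Lhx2 second start, chr2:38351058-38351307, plus strand: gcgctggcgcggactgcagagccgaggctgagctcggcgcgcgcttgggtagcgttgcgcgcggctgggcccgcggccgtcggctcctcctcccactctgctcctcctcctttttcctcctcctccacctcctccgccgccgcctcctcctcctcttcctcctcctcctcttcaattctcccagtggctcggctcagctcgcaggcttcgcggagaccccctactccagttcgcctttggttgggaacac
Meis2, chr2:116064620-116064869, minus strand: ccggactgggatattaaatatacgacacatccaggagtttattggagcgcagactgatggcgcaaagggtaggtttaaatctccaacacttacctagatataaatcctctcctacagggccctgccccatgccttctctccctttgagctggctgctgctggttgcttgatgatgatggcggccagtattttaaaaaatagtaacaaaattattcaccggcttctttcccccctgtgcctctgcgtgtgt
Pax6 second start, chr2:105682213-105682462, plus strand: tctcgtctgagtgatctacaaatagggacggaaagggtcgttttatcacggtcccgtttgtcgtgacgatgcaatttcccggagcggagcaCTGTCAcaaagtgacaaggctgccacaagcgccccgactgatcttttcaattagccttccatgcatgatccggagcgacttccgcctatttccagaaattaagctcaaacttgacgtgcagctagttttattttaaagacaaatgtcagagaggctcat

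The motifs were the Meis core TGACAG, the homeodomain core TAATTA, the Sox core ACAATG and the forkhead core GTAAACA, each read on both strands, and none of the matches overlapped. Of 32851 RefSeq promoters of the same length, 15.9% hold the Meis core, 4.84% the homeodomain core, 10.7% the Sox core and 3.17% the forkhead core. The windows of Lhx2 and Meis2 hold none of these 4 strings. The second Pax6 start, Six3 and Sox2 each hold 1 Meis core, and Meis1 holds 1 Sox core. Base composition set the Lhx2 windows (72.8% and 68.4% G or C) apart from that of Meis2 (47.6%), against a median of 52.4% over all promoters. These matches describe the letters only.

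Signals are the deposited linear values after each array was scaled to a common trimmed mean. They carry no unit, and levels are compared between arrays for 1 probe set, not between probe sets. Replicates correlated across all probe sets at 0.927 to 0.969. Differences are on the log2(signal + 0.0211) scale, which understates changes of dim probe sets, with the standard error (SE) of a limma model over all 8 arrays. Calls were made where the p, adjusted by Benjamini-Hochberg across all 15838 probe sets above a filter on low signal, fell under 0.05. Of the 14 probe sets, 11 passed it. The other 3 were 1437816_at of Pax6 and 2 probe sets of Six3. The plot of member signals by array shows these 11.

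**Figure D1:**
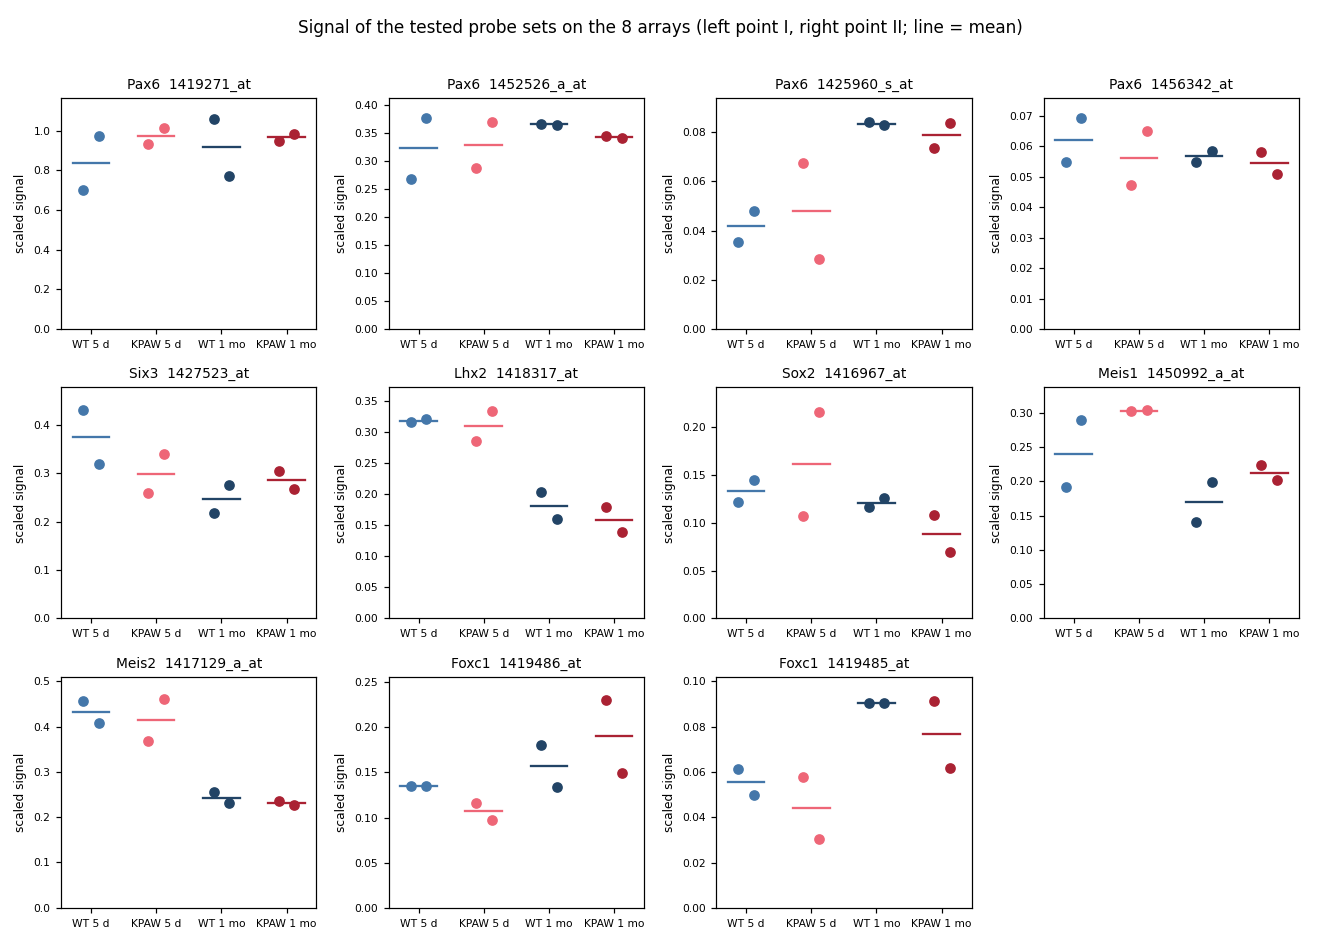
Scaled signal (linear axis from 0, no unit, 1 panel a probe set) of the 11 tested probe sets of the 7 genes in the 8 arrays, by group, with a point for each array and a line at the group mean. Lhx2 and Meis2 sit lower in all 4 arrays of 1 month than in all 4 of 5 days, while 1419271_at of Pax6 overlaps between all groups.

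Markers of the cell types an eye can hold are given first, since several moved with the groups. Retinal progenitor markers (9 of 10 listed were on the array) had a summed scaled signal of 3.14 to 4.07 at 5 days and 1.45 to 1.77 at 1 month. Of these 9, Fgf15 had the lowest listed value on KPAW I and KPAW II at 1 month. Rod markers summed to 6.24 to 6.76 at 5 days and to 27.2 to 32.9 in 3 of the arrays of 1 month, but to 0.755 in KPAW I at 1 month, where Pde6b, Pde6a and Cnga1 were at the lowest listed value. Markers of epidermis and cornified epithelium, all 10 on the array, summed to 0.476 and 0.468 in wild type and 27.1 and 10.4 in KPAW at 1 month. At 5 days that sum was 5.39 in wild type I and 6.56 in KPAW I, but 0.477 in wild type II and 0.396 in KPAW II. Of these 10, Ivl had the lowest listed value on every array, and up to 6 of the 10 did on one array. The part of these markers in the member values was not tested. Lens markers, at 24.1 to 34.6 in every array, and pigment epithelium markers, at 10.7 to 18.6, were present throughout, as the label eye implies. Xist, the RNA of the inactive X chromosome, was at 2.95 to 3.64 in both wild-type arrays and KPAW II at 5 days, and at 0.0523 to 0.0861 in the other 5 arrays. Sex markers and age therefore cannot be told apart in wild type.

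Pax6 signal in the deposited data differed little between groups by the probe set with the highest mean signal, 1419271_at. Its scaled signals were 0.699 and 0.974 in wild type at 5 days and 0.934 and 1.01 in KPAW at 5 days. At 1 month they were 1.06 and 0.771 in wild type and 0.950 and 0.984 in KPAW. The wild-type replicates lay as far apart as any pair of groups, so the order of the group means (0.837, 0.974, 0.915 and 0.967 in the order given) has no neighbours that differ beyond their spread. Between 5 days and 1 month the signal changed by 0.13 (SE 0.20, limma adjusted p = 0.692) in wild type and by -0.01 (SE 0.20, adjusted p = 0.980) in KPAW.

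The second Pax6 probe set, 1452526_a_at, read 0.269 and 0.377 in wild type and 0.288 and 0.371 in KPAW at 5 days. It read 0.368 and 0.366 in wild type and 0.345 and 0.342 in KPAW at 1 month. The arrays of 1 month lay inside the range of those of 5 days. Another, 1456342_at, lay between 0.0472 and 0.0691 at 5 days and between 0.0509 and 0.0585 at 1 month, again with overlap. Neither changed with age past the threshold in either kind of eye.

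The dim Pax6 probe set 1425960_s_at was higher at 1 month. It read 0.0354 and 0.0481 in wild type and 0.0675 and 0.0283 in KPAW at 5 days, and 0.0841 and 0.0829 in wild type and 0.0736 and 0.0838 in KPAW at 1 month. All 4 arrays of 1 month lay above all 4 of 5 days, though KPAW I at 5 days came close. Averaged over both kinds of eye, a contrast added after the data were seen, it rose by 0.67 (SE 0.20, adjusted p = 0.0345). In wild type alone (0.74, adjusted p = 0.104) and in KPAW alone (0.59, adjusted p = 0.195) it did not pass. The Pax6 probe set did pass in wild type with the values as deposited (1.13, adjusted p = 0.0104), with the groups of the contrast alone (adjusted p = 0.0378) and without KPAW I (adjusted p = 0.0433) or II (adjusted p = 0.0392) at 5 days. In KPAW it passed without KPAW I at 5 days (1.01, adjusted p = 0.0420) and stood at 0.17 (adjusted p = 0.736) without KPAW II at 5 days. The averaged call was kept without KPAW I at 5 days and lost without any other single array, with differences of 0.46 to 0.74 and adjusted p of 0.0525 to 0.105. The fifth Pax6 probe set, 1437816_at, fell under the filter and was not tested. It read 0.0214 to 0.0338 at 5 days and 0.0373 to 0.0396 at 1 month, with the 2 ages apart.

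Comparing probe sets of 1 gene within each array asks whether they move together, and array scaling largely cancels there. Over the 10 Pax6 pairs and the Foxc1 pair, the log2 ratio was compared between the 4 arrays of each age with an exact two-sided permutation test. Its 70 arrangements allow no p below 0.0286. No pair passed after adjustment over the 11 pairs, and 3 reached the smallest p (exact p = 0.0286, adjusted p = 0.105), all in Pax6. The log2 ratio of 1419271_at over 1425960_s_at was 3.83 ± 0.41 (SD, n = 4) at 5 days and 3.23 ± 0.20 at 1 month, a difference of -0.61 with no overlap. The log2 ratio of 1425960_s_at over 1437816_at went from 0.40 ± 0.28 to 0.78 ± 0.06, and that of 1452526_a_at over 1456342_at went from 2.11 ± 0.12 to 2.29 ± 0.07. For 1419271_at over 1452526_a_at, the pair with the highest mean signals, the log2 ratio was 1.41 ± 0.15 and 1.35 ± 0.21, a difference of -0.07 (exact p = 0.686). In both pairs that contain 1425960_s_at and lay apart by age, that probe set was higher relative to its partner at 1 month. In the platform's naming, _s_at marks probe sets that can match transcripts of more than 1 gene. The place of each probe set in the gene's transcripts was not analysed here.

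**Figure D2:**
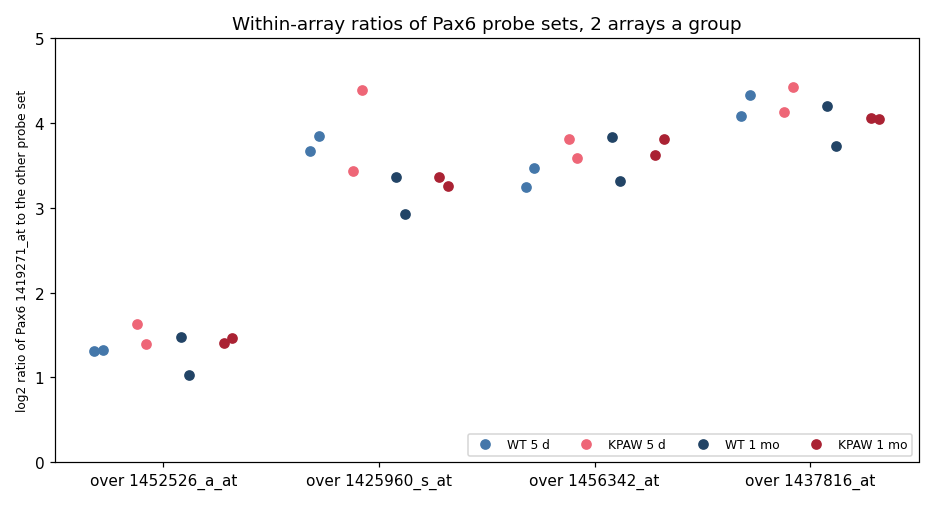
Within-array log2 ratios of Pax6 probe sets in the 8 arrays, by group, with a point for each array and 1419271_at set over each of the other 4 probe sets. The ratio of 1419271_at over 1425960_s_at is lower in all 4 arrays of 1 month, and that of 1419271_at over 1452526_a_at overlaps between the ages.

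Six3 was measured by 1 of its 3 probe sets. 1426637_a_at was at the lowest listed value of 0.01 on all 8 arrays and 1426638_at on 7 of 8, so neither gives a level here. The third, 1427523_at, read 0.432 and 0.320 in wild type and 0.259 and 0.340 in KPAW at 5 days, and 0.217 and 0.275 in wild type and 0.305 and 0.267 in KPAW at 1 month. Wild type was lower at 1 month than at 5 days in both arrays, by -0.56 (SE 0.20, adjusted p = 0.0955), which did not pass. KPAW overlapped between the ages at -0.05 (adjusted p = 0.893). The difference between these 2 changes was 0.51 (95% interval -0.16 to 1.18, adjusted p = 0.809).

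Lhx2 fell between 5 days and 1 month in both kinds of eye. Its signals were 0.316 and 0.320 in wild type and 0.286 and 0.334 in KPAW at 5 days. At 1 month they were 0.204 and 0.159 in wild type and 0.178 and 0.139 in KPAW. All 4 arrays of 1 month lay below all 4 of 5 days, and within an age wild type and KPAW overlapped. The change was -0.75 (SE 0.18, limma adjusted p = 0.0238) in wild type, -0.88 (SE 0.18, adjusted p = 0.0163) in KPAW and -0.82 (SE 0.12, adjusted p = 0.00237) in their average.

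Meis2 fell by a like amount. It read 0.457 and 0.408 in wild type and 0.367 and 0.460 in KPAW at 5 days, and 0.255 and 0.231 in wild type and 0.235 and 0.227 in KPAW at 1 month. The highest array of 1 month stood well under the lowest of 5 days. The change was -0.78 (SE 0.15, adjusted p = 0.0129) in wild type, -0.78 (SE 0.15, adjusted p = 0.0154) in KPAW and -0.78 (SE 0.11, adjusted p = 0.00155) in their average. In tissue RNA such as this, fewer cells of a type and less RNA per cell cannot be told apart.

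Lhx2 and Meis2 were the 2 called of the 11 tested probe sets in wild type, both lower. That share of 18.2% stands beside 18.1% of all probe sets called in either direction, 9.33% of them lower and 8.73% higher. In KPAW they were again the 2 called, 18.2% against 14.3% of all probe sets, of which 7.51% were lower and 6.76% higher. No member was called higher in either kind of eye. In the average, 4 of 11 (36.4%) passed, 2 lower and 2 higher, against 31.9% of all (16.8% lower and 15.1% higher). The members' shares of calls were thus near those of the whole array, in an age contrast that moved many genes.

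Calls within 1 kind of eye were lost without some single arrays. Leaving out an array of a contrast leaves 1 in its group, and fewer of all probe sets were then called. The Lhx2 call in wild type was lost without wild type I at 5 days (-0.76, adjusted p = 0.115), wild type II at 5 days (-0.74, adjusted p = 0.114) or wild type II at 1 month (-0.59, adjusted p = 0.128). The Meis2 call in wild type was lost without wild type I (-0.70, adjusted p = 0.0959) or II (-0.86, adjusted p = 0.0569) at 5 days and without wild type I (-0.84, adjusted p = 0.0522) or II (-0.72, adjusted p = 0.0757) at 1 month. In KPAW both were lost without KPAW II at 5 days, Lhx2 at -0.78 (adjusted p = 0.104) and Meis2 at -0.62 (adjusted p = 0.101). That array is the one of high Xist among the KPAW eyes, so the 3 arrays left are alike in sex markers. The averaged call of both genes was kept without any 1 array. With the values as deposited, not scaled, neither gene was called in any of these 3 contrasts (adjusted p from 0.0623 for Lhx2 in the average to 0.530 for Lhx2 in wild type), though both stayed negative. With the groups of the contrast alone both calls in KPAW were lost (adjusted p = 0.0663 for Lhx2 and 0.0739 for Meis2). The summed retinal progenitor signal was lower at 1 month as well. The sums of the cell types in which these genes are known to persist were higher there. Amacrine markers (9 of 10 on the array) summed to 3.40 to 4.17 at 5 days and 4.34 to 4.81 at 1 month, and Müller glia markers (10 of 10) to 7.93 to 9.45 and 9.96 to 13.1, none of them at the lowest listed value. The amacrine list includes Pax6. Bright genes weigh most in a sum, and Calb2 alone gave 0.913 to 1.35 at 5 days and 1.40 to 1.61 at 1 month. In limma, 1 of the 9 amacrine markers was called higher with age and 0 lower in each kind of eye. Of the 10 Müller glia markers, 4 were called higher and 1, Gfap, lower in each. Of all probe sets 8.73% were higher and 9.33% lower in wild type, and 6.76% and 7.51% in KPAW. In the average, 3 amacrine markers were called higher and 1, Tfap2a, lower (-0.56, limma adjusted p = 0.0291). There 5 Müller glia markers were called higher and 1 lower, where 15.1% of all probe sets were higher and 16.8% lower. The part of these markers in the fall of Lhx2 and Meis2 was not tested.

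Meis1, the close relative of Meis2, read 0.191 and 0.289 in wild type and 0.302 and 0.304 in KPAW at 5 days, and 0.140 and 0.198 in wild type and 0.223 and 0.201 in KPAW at 1 month. Its mean was lower at 1 month, by -0.45 (SE 0.22, adjusted p = 0.196) in wild type and -0.47 (SE 0.22, adjusted p = 0.187) in KPAW. The averaged difference of -0.46 did not pass (adjusted p = 0.0538). It was called in 5 of 20 alternatives: median scaling (-0.50, adjusted p = 0.0388), the filter at the 50th percentile (adjusted p = 0.0483), the replicate block (adjusted p = 0.0431), and without wild type I at 5 days (-0.60, adjusted p = 0.0309) or wild type II at 1 month (-0.57, adjusted p = 0.0447). In the others its adjusted p reached 0.498. The Meis1 value in wild type ran from -0.72 to -0.17 without 1 array, and was 0.01 with the values as deposited. The wild-type arrays of the 2 ages overlapped, because wild type I at 5 days lay below wild type II at 1 month.

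Sox2 read 0.122 and 0.145 in wild type and 0.107 and 0.216 in KPAW at 5 days. At 1 month it read 0.116 and 0.126 in wild type and 0.108 and 0.0690 in KPAW. KPAW II was the highest array at 5 days and the lowest at 1 month, so the KPAW arrays spanned the whole range. The age difference was -0.12 (SE 0.30, adjusted p = 0.814) in wild type and -0.70 (SE 0.30, adjusted p = 0.156) in KPAW, and the difference between these was -0.58 (95% interval -1.55 to 0.39, adjusted p = 0.816). Without KPAW I at 5 days the Sox2 difference in KPAW was -1.14 (adjusted p = 0.0353) and the average -0.63 (adjusted p = 0.0309), and both passed. Without KPAW II at 5 days the difference in KPAW was -0.25 (adjusted p = 0.630). With the values as deposited the Sox2 difference in wild type was 0.32 (adjusted p = 0.478).

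Foxc1 went the other way from Lhx2 and Meis2 with age. By 1419485_at it read 0.0612 and 0.0497 in wild type and 0.0579 and 0.0303 in KPAW at 5 days, and 0.0905 and 0.0903 in wild type and 0.0914 and 0.0620 in KPAW at 1 month. All 4 arrays of 1 month lay above all 4 of 5 days, KPAW II at 1 month by little. The average rose by 0.57 (SE 0.18, adjusted p = 0.0421), a call that was kept without KPAW I at 5 days or KPAW II at 1 month and lost without any other single array (0.42 to 0.63, adjusted p of 0.0745 to 0.121). In wild type (0.55, adjusted p = 0.174) and in KPAW (0.60, adjusted p = 0.153) it did not pass alone, though with the values as deposited it passed in wild type (0.94, adjusted p = 0.0293). The averaged Foxc1 call was also lost after quantile normalization (adjusted p = 0.0556), median scaling (adjusted p = 0.0547) or no filter (adjusted p = 0.0630).

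The brighter Foxc1 probe set, 1419486_at, read 0.135 and 0.135 in wild type and 0.116 and 0.0973 in KPAW at 5 days, and 0.181 and 0.134 in wild type and 0.230 and 0.149 in KPAW at 1 month. Wild type overlapped between the ages and KPAW did not. The differences were 0.18 (adjusted p = 0.613) in wild type, 0.70 (adjusted p = 0.0736) in KPAW and 0.44 (adjusted p = 0.0661) in the average. Without KPAW II at 1 month this Foxc1 probe set passed in KPAW (0.98, adjusted p = 0.0272) and in the average (0.58, adjusted p = 0.0187), and without KPAW I at 1 month it stood at 0.42 (adjusted p = 0.259) in KPAW. The replicate block called it in KPAW (adjusted p = 0.0402) and in the average (adjusted p = 0.0339), and the values as deposited in the average (0.68, adjusted p = 0.0204). The log2 ratio of the brighter over the dimmer Foxc1 probe set was 1.02 ± 0.19 (SD, n = 4) at 5 days and 0.88 ± 0.30 at 1 month (exact permutation p = 0.514), with overlap. Markers of stroma and periocular mesenchyme (9 of 10 on the array, none at the lowest listed value) summed to 13.7 to 17.9 at 5 days, 7.73 to 8.05 in wild type at 1 month and 11.2 to 15.1 in KPAW at 1 month. The part of these markers in the Foxc1 values was not tested.

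Over the 8 arrays, the age groups were apart for 4 member probe sets. Lhx2 and Meis2 lay below (18.5% of all probe sets had all 4 arrays of 1 month below all 4 of 5 days), and 1425960_s_at of Pax6 and 1419485_at of Foxc1 lay above (14.9% of all). Within wild type, 2 of 11 members had both arrays of 1 month above both of 5 days and 3 had them below, against 32.5% and 33% of all. Within KPAW the counts were 3 and 3, against 25.3% and 32.2% of all.

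**Figure D3:**
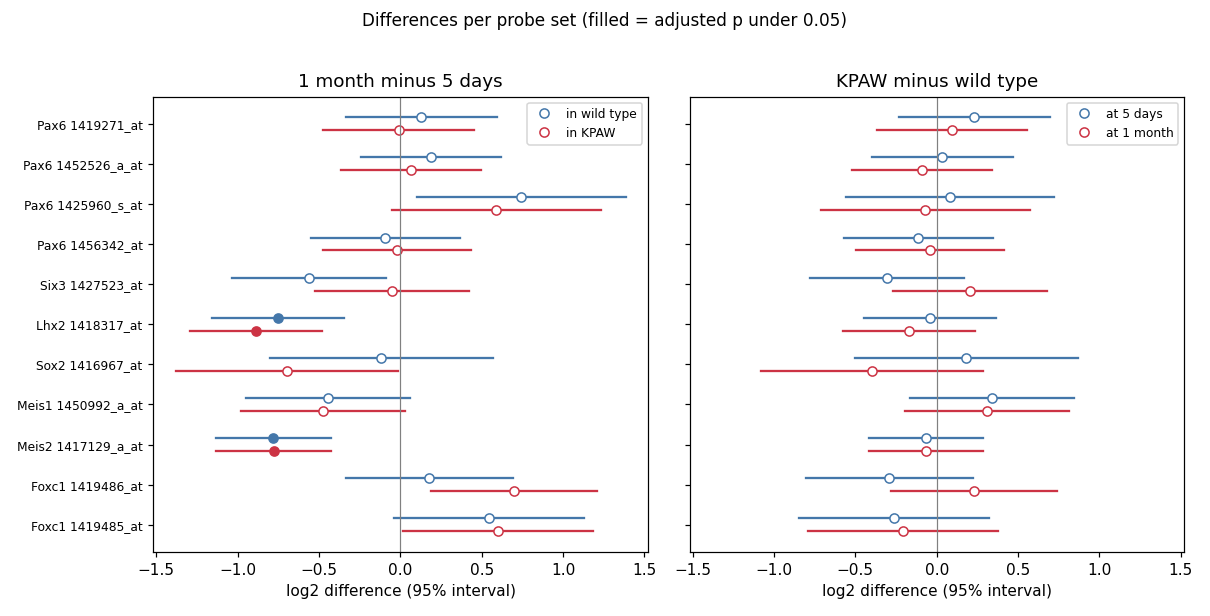
Log2 differences with 95% intervals for the 11 tested probe sets, 1 month minus 5 days (left) and KPAW minus wild type (right), from the limma model over 8 arrays. Lhx2 and Meis2 lie wholly below 0 in both kinds of eye for age, and every interval of KPAW minus wild type spans 0.

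No member differed between KPAW and wild type past the threshold at either age. At 1 month 0 of 11 passed, where 0.0253% of all probe sets (4 of 15838) did, 0.0126% higher and 0.0126% lower. At 5 days, for the change of the difference between the ages, and for the mean of both ages, 0 of 11 passed, where 0% of all did. By the same limma model, 0 of the 11 had an unadjusted p under 0.05 in any of these 4 contrasts. Among all 15838 probe sets, 1100, 378, 932 and 593 did, in the order given. With shares this low, 0 of 11 does not set the members apart from the whole array.

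The intervals say what size of difference the arrays leave possible. For 1419271_at of Pax6, KPAW minus wild type was 0.23 (95% interval -0.23 to 0.69) at 5 days and 0.09 (-0.37 to 0.56) at 1 month. For 1452526_a_at of Pax6 it was 0.03 (-0.40 to 0.47) and -0.09 (-0.52 to 0.34). The dim 1425960_s_at of Pax6 had wider intervals, 0.08 (-0.56 to 0.72) and -0.07 (-0.71 to 0.57). For 1456342_at of Pax6 the difference was -0.11 (-0.57 to 0.34) and -0.04 (-0.50 to 0.41). The mean over both ages was 0.16 (-0.16 to 0.49) for 1419271_at and -0.03 (-0.33 to 0.28) for 1452526_a_at. For Meis2 it was -0.07 (-0.31 to 0.18) and for Lhx2 -0.11 (-0.39 to 0.18). Sox2 had the largest difference at 1 month, -0.40 (-1.08 to 0.29, adjusted p = 0.729), with both KPAW arrays below both of wild type.

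Meis1 was the member for which KPAW stood above wild type in both arrays at each age. Its difference was 0.34 (-0.17 to 0.84, adjusted p = 1.00) at 5 days and 0.31 (-0.19 to 0.81, adjusted p = 0.710) at 1 month. The mean of both ages was 0.32 (-0.03 to 0.68, unadjusted p = 0.0694, adjusted p = 0.986) from limma and did not pass. At 1 month both KPAW arrays lay above both of wild type for 1 of 11 members (17% of all probe sets) and below for 2 (19.6% of all). At 5 days the counts were 1 above (16.8% of all) and 1 below (16.6% of all). The within-array ratios of probe sets of Pax6 and Foxc1 did not differ between KPAW and wild type past the threshold in any of the 11 pairs (exact permutation within age, adjusted p of 0.883 to 0.889). Its 36 arrangements allow no p below 0.0556, so this test could not pass. Leaving out KPAW I at 1 month, the array of low rod signal, called no member in KPAW against wild type either.

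Other genes of the network were taken from 6 lists holding 73 genes, of which 64 were on the array and 50 passed the filter. With age, 3 of the 50 were higher and 10 lower in wild type, where 8.73% of all probe sets were higher and 9.33% lower. In KPAW 3 were higher and 12 lower, where 6.76% of all were higher and 7.51% lower. Their median changes of -0.29 and -0.21 compare with 0.00 and -0.04 over all probe sets. In KPAW against wild type 0 of the 50 passed in limma in any of the 4 contrasts, with 3 at an unadjusted p under 0.05 at 1 month and 2 at 5 days.

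Among eye field and optic cup factors, which act beside Pax6, Six3 and Lhx2, 0 of 8 were called higher in either kind of eye. Of the 8, 2 were called lower in wild type and 5 in KPAW, and the median changes were -0.52 and -0.76. Of all probe sets 9.33% were lower in wild type and 7.51% in KPAW. In the average 1 of the 8 was called higher and 5 lower, where 15.1% of all were higher and 16.8% lower. Six6, the homeodomain protein paired with Six3, fell by 1.03 (SE 0.16, adjusted p = 0.00492) in wild type and 0.98 (SE 0.16, adjusted p = 0.00707) in KPAW. Rax, the retinal homeobox factor, fell by 0.77 (SE 0.22, adjusted p = 0.0486) and 1.62 (SE 0.22, adjusted p = 0.00420). Otx2, which patterns the forebrain and retinal pigment epithelium, was called lower in KPAW at -1.51 (adjusted p = 0.00768) and stood at -0.81 (adjusted p = 0.0560) in wild type. At 1 month Otx2 read 0.769 and 0.834 in wild type, 0.421 in KPAW I and 0.752 in KPAW II. Rax read 0.118 and 0.141 in wild type, 0.0678 in KPAW I and 0.110 in KPAW II. KPAW I is the array of low rod signal, whose part in these values was not tested. Tbx2, a T-box factor, was called lower in KPAW at -0.83 (adjusted p = 0.0198) and stood at -0.48 (adjusted p = 0.0949) in wild type. The difference between the change in KPAW and that in wild type passed for 0 of these 8 in limma, where 0% of all did. Over the 6 lists, 4 of the 50 genes had an unadjusted p under 0.05 there, against 932 of all 15838 probe sets.

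The list of Eya and Dach genes, whose proteins partner the family of Six3, and of that family's other members had 0 of 7 called in limma by age in either kind of eye. The shares called over all probe sets were 18.1% in wild type and 14.3% in KPAW. Among TALE partners and LIM cofactors, Ldb1, the adaptor that LIM-homeodomain proteins such as Lhx2 require, fell by 0.78 (SE 0.15, adjusted p = 0.0120) in wild type and 0.70 (SE 0.15, adjusted p = 0.0213) in KPAW. Pbx2, a partner of Meis proteins, was called in KPAW at -0.61 (adjusted p = 0.0351), which made 1 of 8 lower in wild type and 2 of 8 in KPAW. Over all probe sets 9.33% were lower and 8.73% higher in wild type, and 7.51% lower and 6.76% higher in KPAW. Of 4 other Sox genes, Sox4, a factor of newly born neurons, fell by 2.61 (SE 0.18, adjusted p = 0.000245) in wild type and 2.62 (SE 0.18, adjusted p = 0.000291) in KPAW. Sox21 was called higher in KPAW at 1.56 (SE 0.43, adjusted p = 0.0476).

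Of 7 lens and anterior segment factors, 2 were called lower in wild type, Hsf4 at -0.81 (adjusted p = 0.0163) and Pitx3 at -0.50 (adjusted p = 0.0439), and 0 were called in KPAW. Of 16 known Pax6 target genes, 3 were called higher and 4 lower in wild type, and 2 higher and 4 lower in KPAW. Of all probe sets 18.1% and 14.3% were called in either direction. Fabp7, a fatty acid binding protein of neural progenitors, fell by 5.27 (SE 0.16, adjusted p = 1.72e-05) in wild type and 5.42 (SE 0.16, adjusted p = 1.36e-05) in KPAW. Gcg fell by 2.37 (SE 0.25, adjusted p = 0.00127) in wild type and 1.66 (SE 0.25, adjusted p = 0.00611) in KPAW. Neurog2 fell by 1.73 (SE 0.27, adjusted p = 0.00572) and 1.90 (SE 0.27, adjusted p = 0.00486). Signals of Fabp7, Gcg and Neurog2 lay near the pseudocount at 1 month, which limits the size of fall that can be read. Aldh3a1, the corneal aldehyde dehydrogenase, rose by 4.82 (SE 0.45, adjusted p = 0.000776) and 4.38 (SE 0.45, adjusted p = 0.00145). Krt12, the keratin of corneal epithelium, rose by 3.67 (SE 0.92, adjusted p = 0.0306) in wild type and stood at 0.96 (SE 0.92, adjusted p = 0.525) in KPAW. Its signals at 1 month were 6.76 and 7.82 in wild type but 0.391 in KPAW I and 5.13 in KPAW II. Known targets of Pax6 were thus called in both directions with age. Corneal epithelium markers, of which Aldh3a1 and Krt12 are 2, summed to 3.31 to 10.0 at 5 days and 15.3 to 25.4 at 1 month, and Ly6d was at the lowest listed value in 2 arrays of 5 days. Their part in the values of these targets was not tested.

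**Figure D4:**
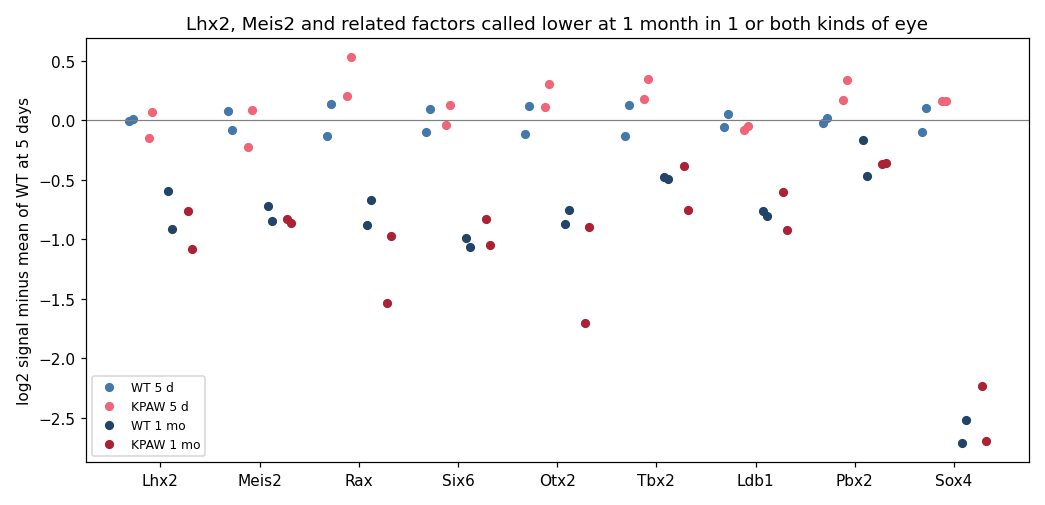
Log2 signal minus the wild-type mean of 5 days for Lhx2, Meis2 and 7 related factors called lower at 1 month in 1 or both kinds of eye, with a point for each of the 8 arrays, coloured by group. Lhx2 and Meis2 keep the 2 ages apart, with scaled signals of 0.286 to 0.334 at 5 days against 0.139 to 0.204 at 1 month for Lhx2.

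Profiles most like those of the members over the 8 arrays were found by the root mean square distance between log2 profiles, each centred on its own mean. For Lhx2 these were Gldc, which encodes the glycine decarboxylase, at 0.09 and Cdk5r1 at 0.09, where the profile of Lhx2 itself had an SD of 0.46. For Meis2 they were Tril at 0.07 and Mapt, which encodes tau, at 0.07, against an SD of 0.43. For 1419271_at of Pax6 they were Hmgxb3 and Mkrn1, both at 0.05, against an SD of 0.20. Six3 lay nearest Nrcam and Palm, Meis1 nearest Tfb2m and Emilin3, Sox2 nearest Psmc4 and Lamtor5, and Foxc1 nearest Snx9 and Krtcap3, at distances of 0.07 to 0.11. These are nearest neighbours among many probe sets over 8 arrays.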

How the data were processed

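Gene expression in mouse eyes was read on 8 arrays, 2 in each of 4 groups taken from the titles. RNA was prepared with Trizol and RNeasy, per the labels. The deposited table, per the file headers, holds a signal for each probe set on each array, read here as linear, with a lowest listed value of 0.01 and a median of 1 over the 64 control probe sets. The software and normalization behind them are not given in the sources used here. Controls were left out, and arrays were scaled to a shared trimmed mean (2% off each end). Values were taken as log2(signal + 0.0211), the 20th percentile of positive values, and probe sets with a mean above the 30th percentile (0.0406) were kept. A limma 3.58.1 model (R 4.3.3) with 4 group means, a variance trend and 4 residual degrees of freedom was fitted to all kept probe sets and tested on simulated data. Arrays have no depth, and their number limits the precision. The members and gene lists were chosen with earlier results of these data known. All member probe sets are named. Of each related list, up to 4 genes are named with the largest changes among those called by age in either kind of eye. The average over kinds of eye, and leaving 2 floor-bound Six3 probe sets out of the pairs, were chosen after seeing the data. Promoters were read from RefSeq's GRCm38.p6 table. Alternatives were other scalings, pseudocounts, filters and models, a replicate block and leaving out each array. Tables and plots used Python 3.11.15, pandas 2.3.3, scipy 1.17.1 and matplotlib 3.10.9.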

Additional observations from a re-analysis of the deposited data

How the results depend on the processing

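All 21 settings were run, except that the groups of a contrast alone give no fit for the change between ages or for the averages. No value changed sign while called. Of the counts of called members and pairs under the alternatives, 265 held, 16 went to 0, 7 rose from 0 and 4 moved by over 1.5 times. Of the values of single probe sets, 1594 kept their side of the threshold, 33 lost a call and 18 gained one. In KPAW against wild type 0 members passed in any setting. Changed counts of called members, with 2 lower and 0 higher in each kind of eye and 2 of each in the average as the main values, were these. With the values as deposited, wild type had 2 higher and 0 lower with age, KPAW 0 lower and the average 3 higher and 0 lower. There the median of all probe sets shifted by 0.44 in wild type, and relative to it Lhx2 stood at -0.72 and Meis2 at -0.74. That setting made 90.8% of the called probe sets higher in wild type and 65.0% in KPAW, where the main scaling gave 48.3% and 47.4%, and median scaling gave 37.4% in wild type. With the groups of the contrast alone, wild type had 1 higher and KPAW 0 lower, with Lhx2 at an adjusted p of 0.0663 and Meis2 at 0.0739. The average had 3 lower with median scaling or the filter at the 50th percentile. It had 1 higher after quantile normalization, median scaling or no filter, and 0 higher with a filter at the 50th percentile or with 1 probe set per gene, both of which leave out 1425960_s_at of Pax6 and 1419485_at of Foxc1. Leaving out each array in turn gave 0 to 1 higher and 0 to 2 lower in wild type, 0 to 1 higher and 0 to 3 lower in KPAW, and 0 to 2 higher and 2 to 3 lower in the average. The deviations of same-numbered arrays correlated at -0.02 to 0.31 over the 6 group pairs, over 0.1 in 3 of them, and the labels tie no numbers to an animal or batch. Since not every pair was over 0.1, the numbers were not taken as pairing. With a replicate block, KPAW had 1 higher with age, 1419486_at of Foxc1 at 0.70 (adjusted p = 0.0402), the average had 3 higher and 3 lower, adding that probe set and Meis1, and 2990 probe sets were called in wild type where 2860 were without it. Dim probe sets near the pseudocount, such as 1425960_s_at, limit the size of change that can be read.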
